A study of Mus musculus with 3 samples.

Results

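The library labelled CD64- DC was compared gene by gene with the 2 other myeloid libraries of the same study. A gene was taken as describing the library when its log2(FPKM + 1) value differed by 2 or more, in the same direction, from both others, with at least 10 FPKM (mapped fragments corrected for transcript length and library size) in the higher library or libraries. Of 24346 gene symbols in the tables, 17329 reached 1 FPKM in some library and were compared, and 383 met the rule. Of these, 210 were higher in the CD64- library than in both others (1.21% of the genes compared) and 173 were lower than in both (0.998%). The rule uses the measured values, so these genes are a description of 3 libraries and not the outcome of a test.

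The cells came from the colon of BALB/c mice, an inbred laboratory strain, that were healthy and, as far as the labels say, untreated. There was 1 library each of dendritic cells (DC) sorted as CD64-, of macrophages sorted as CD64+, and of cells sorted as Gr-1+ CD11b+, which the labels name neutrophil and monocyte. Age, sex, any genetic change, the number of animals and whether they were pooled are not given in the sources used here, nor is the full set of antibodies of the sort. With 1 library per population no difference has a replicate check, and no p-value or error is given. The title of the series names E-NTPD8, which breaks down ATP outside cells, and the ATP-gated channel P2X4.

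Conventional DC are antigen-presenting cells that depend on the FLT3 receptor and its ligand and, after taking up antigen in the gut wall, use the chemokine receptor CCR7 to reach the draining lymph node, where they show peptides on MHC class II to T cells. Macrophages of the gut wall arise largely from monocytes, stay in the tissue, and carry CD64, the product of Fcgr1, which binds IgG with high affinity. A CD64- gate therefore separates DC from macrophages, but B cells, plasma cells and innate lymphoid cells also lack CD64, and B cells share MHC class II with DC.

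The markers given for the population were all higher. Flt3, the receptor of the DC growth factor, stood at 39.9 FPKM in the CD64- library, 5.42 in the macrophage library and 2.52 in the Gr-1+ CD11b+ library, and all values below are in this order unless stated. Ccr7 stood at 1004, 107 and 27.5 FPKM. H2-Ob, a chain of the class II accessory molecule DO, was at 227, 17.7 and 3.37. Cd79a, a signalling chain of the B cell antigen receptor, was at 1489, 59.3 and 35.8, and for all 4 markers the Gr-1+ CD11b+ value was the lowest. Fcgr1 itself was at 9.23, 113 and 12.3 FPKM, lowest in the CD64- library. The 4 markers were chosen with these values known and are no independent check of the label. Of the 210 higher genes, 41 (19.5%) were on the B cell, germinal centre or plasma cell lists, which is 55.4% of the 74 compared genes of these lists. The DC lists gave 11 (5.24% of the higher genes, 11.96% of 92 list genes), and 9 of these were on no lymphocyte list. Because of these counts the library is called here by its gate, the CD64- library, and not by a cell type.

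The 3 libraries differed in depth and spread. Steps in the FPKM of low genes gave the CD64- and macrophage libraries a relative depth of 3.60 and 2.69, with the Gr-1+ CD11b+ library set to 1, so that 10 FPKM on a transcript of 1 kb stood for about 80.2, 59.9 and 22.3 fragments. The 10 most abundant genes held 15.0%, 22.2% and 33.5% of the FPKM sum, and 11810, 13047 and 16004 genes reached 1 FPKM. Among 1445 olfactory and vomeronasal receptor genes, which myeloid cells are not known to use, the 95th percentile was 0.610, 3.23 and 9.67 FPKM. All 210 higher genes were above that level in the CD64- library, 111 in the macrophage library and 25 in the Gr-1+ CD11b+ library. For most of them the Gr-1+ CD11b+ value was thus no higher than the level of these silent genes, whereas most were above it in the macrophage library. Of the 173 lower genes, 169 were above it in the CD64- library and all in the others. The median log2 difference over the genes compared was -0.05 against the macrophage library and -0.01 against the Gr-1+ CD11b+ library. Scaling the libraries to equal FPKM sums changed the log2 ratios to these libraries, taken without the pseudocount, by 0.39 and 0.37. It gave 325 higher and 106 lower genes (75.4% higher, against 54.8% as deposited). Median-ratio scaling changed these log2 ratios by -0.20 and -0.78 and gave 146 and 217 genes (40.2% higher). Equal 75th percentiles changed them by -0.17 and -0.77 and gave 150 and 209 (41.8%). Under all 3 scalings 146 of the 210 and 105 of the 173 genes met the rule.

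**Figure D1:**
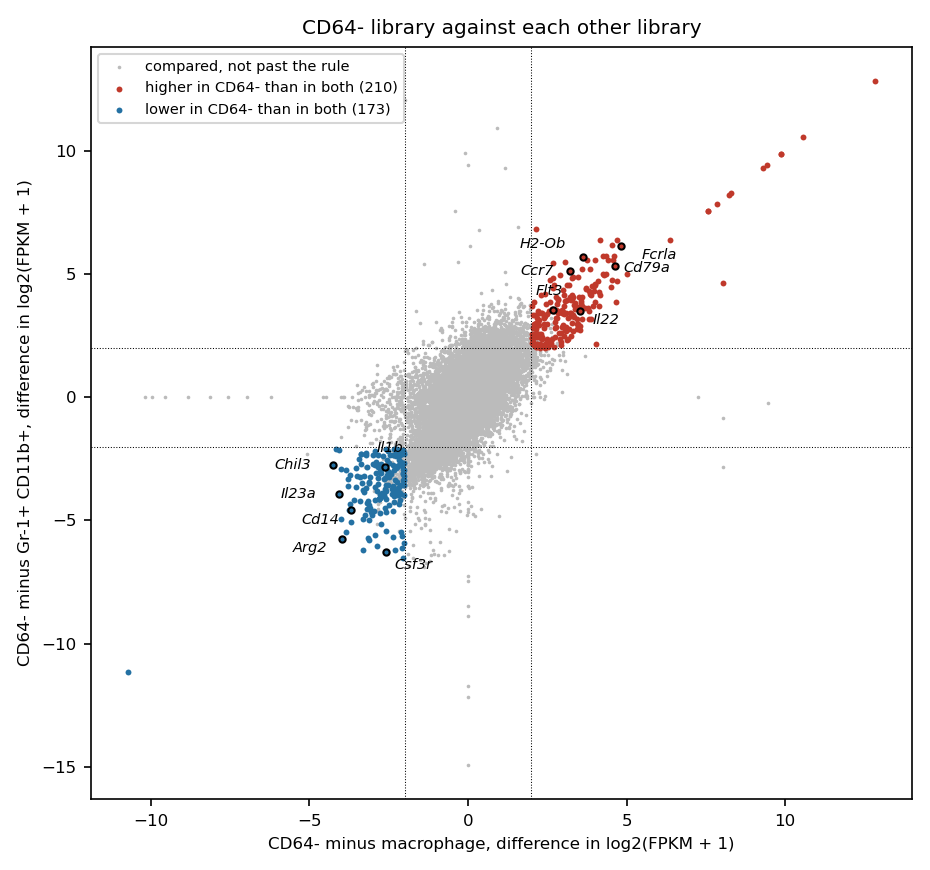
Each point is 1 of 17329 genes, with its log2(FPKM + 1) difference between the CD64- and macrophage libraries on the x axis and between the CD64- and Gr-1+ CD11b+ libraries on the y axis. Dotted lines mark differences of 2 and -2, the 210 genes higher than in both are red and the 173 lower are blue, and Fcrla lies near the far end of the named red genes while Arg2 and Csf3r lie lowest among the named blue ones.

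Against the macrophage library alone, 266 genes were higher in the CD64- library by the same rule (1.53%) and 401 lower (2.31%). Against the Gr-1+ CD11b+ library the counts were 1088 (6.28%) and 633 (3.65%). The macrophage library was thus the nearer of the 2 by count, and most genes that met the rule in the higher direction there also met it against the Gr-1+ CD11b+ library, 210 of 266. For 133 of the 173 lower genes the Gr-1+ CD11b+ value was above the macrophage value, against 56 of the 210 higher genes. The share over all genes compared was not computed. Only 25 of the 210 were above the silent-gene level in both other libraries, so for most of them the order of these values is uncertain.

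Among genes of conventional DC, 4 of 15 were higher than in both other libraries and none lower. Their median log2 difference was 1.26 against macrophages and 1.49 against Gr-1+ CD11b+ cells. Besides Flt3, with log2 differences of 2.67 and 3.54, these were Btla, Bcl11a and Spib, all of which lymphocytes use too. Btla, an inhibitory receptor of DC and lymphocytes, stood at 49.7, 3.18 and 2.87 FPKM. Bcl11a, a transcription factor of B cell and plasmacytoid DC development, was at 13.4, 2.12 and 1.60. Spib, an ETS factor of B cells and plasmacytoid DC, was at 103, 4.08 and 2.30. In each the macrophage value lay between the others, and nearer to the Gr-1+ CD11b+ value. Zbtb46, the transcription factor that marks conventional DC, was highest in the CD64- library at 16.02, 6.36 and 6.55 FPKM but differed by only 1.21 and 1.17 and did not meet the rule. Dpp4, a surface peptidase of DC and T cells, and Kmo, an enzyme of tryptophan breakdown, were also highest there, at 22.4, 8.31 and 3.20 and at 48.1, 19.5 and 3.62 FPKM. Itgax, which encodes the CD11c integrin used to gate DC, was not: it stood at 19.7, 47.0 and 16.4 FPKM, highest in macrophages.

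The lists of both conventional DC subsets gave mixed results. Median log2 differences for the type 1 list were 0.38 against macrophages and 0.93 against Gr-1+ CD11b+ cells. For the type 2 list they were -0.50 and 0.82. Cross-presenting type 1 DC are marked by XCR1 and CLEC9A, and Xcr1 stood at 2.83, 3.30 and 4.18 FPKM and Clec9a at 2.81, 1.88 and 0.866. Xcr1 was therefore lowest in the CD64- library. Both values there lay above that library's background of 0.610, while both Gr-1+ CD11b+ values were under its background of 9.67. Wdfy4, needed for cross-presentation by these cells and also used by B cells, was the only one of 15 type 1 genes to meet the rule, at 17.1, 2.68 and 3.20 FPKM. Irf8, their lineage factor, was at 190, 145 and 27.6 FPKM, and Batf3 at 20.6, 42.1 and 1.58, higher in macrophages. Of 16 genes of type 2 DC, 3 met the rule. Irf4, a factor of type 2 DC, B cells and plasma cells, stood at 25.6, 4.89 and 1.85 FPKM. Tbx21, the T-box factor of some type 2 DC and of type 1 lymphocytes, was at 17.3, 2.62 and 2.36. Cd7, a surface protein of lymphocytes, was at 81.1, 10.1 and 14.8. None of these 3 met it with median-ratio scaling or equal 75th percentiles, nor did Wdfy4 or Bcl11a. Cd209a, a lectin of type 2 DC, was highest in the CD64- library at 203, 105 and 12.7 FPKM, while Sirpa, the surface protein used to gate them, was lowest there at 34.9, 195 and 98.9.

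Of 30 genes of mature and migratory DC, 2 met the rule and both did so under all 3 scalings. Ccr7 had log2 differences of 3.22 and 5.14. Il4i1, a secreted amino acid oxidase induced in maturing DC and in B cells, stood at 111, 12.4 and 1.51 FPKM. Fscn1, the actin-bundling fascin of mature DC, showed the same order at a low level, 5.25, 0.594 and 0.482 FPKM, under the limit of 10. The chemokine gene Ccl22 was at 59.3, 16.1 and 10.9 FPKM and Ccl17 at 79.8, 49.6 and 7.89, both highest in the CD64- library without meeting the rule. The maturation markers Cd83, Cd86 and Cd40 were highest in macrophages and lowest in the Gr-1+ CD11b+ library. Cd83 stood at 1173, 1684 and 155 FPKM, Cd86 at 110, 242 and 22.2, and Cd40 at 78.4, 238 and 23.5. Over the 30 genes the median log2 difference was -0.10 against macrophages and 1.14 against Gr-1+ CD11b+ cells, so Ccr7 did not stand for the list. Ccr7 is also a gene of naive B and T cells; how much of its level came from which cell was not tested, and in bulk RNA fewer cells of a type and less RNA per cell cannot be told apart. Of 16 plasmacytoid DC genes only Ptprcap, a CD45-associated protein also found in T and B cells, met the rule, at 395, 21.0 and 3.74 FPKM. The defining Siglech was at 14.7, 3.87 and 4.87. None of 15 compared genes for retinoic acid and TGF-beta handling by gut DC met it, and Aldh1a2, the retinal dehydrogenase of DC that make retinoic acid, stood at 4.46, 6.75 and 2.31 FPKM.

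**Figure D2:**
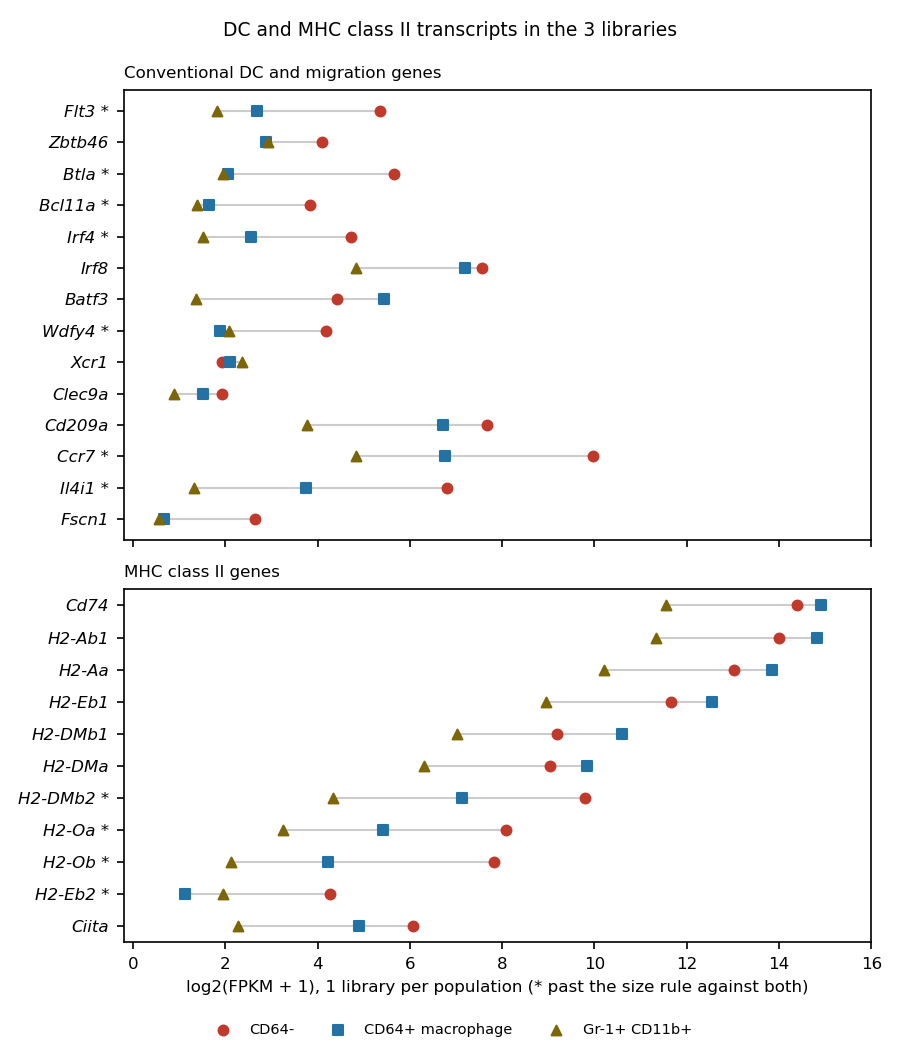
Each row is a gene and each symbol its log2(FPKM + 1) value in 1 library, circles for the CD64- library, squares for CD64+ macrophages and triangles for Gr-1+ CD11b+ cells, with an asterisk where the gene met the rule against both. In the lower panel the abundant class II genes Cd74, H2-Ab1, H2-Aa and H2-Eb1 have the square to the right, and H2-DMb2, H2-Oa, H2-Ob and H2-Eb2 the circle.

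The class II antigen presentation genes did not all differ in the same direction. The chains and chaperone that make up the peptide-loaded molecule were abundant in the CD64- library but higher still in macrophages. Cd74, the invariant chain, stood at 21523, 30833 and 3009 FPKM. The chains of the I-A molecule followed, H2-Ab1 at 16331, 29149 and 2574 and H2-Aa at 8296, 14819 and 1183. The peptide editor DM followed them in part, with H2-DMa at 521, 915 and 77.8. In contrast, both chains of DO, which restrains DM and is known from B cells, thymic epithelium and some DC, met the rule. H2-Oa stood at 271, 41.7 and 8.50 FPKM, with log2 differences of 2.67 and 4.84, and H2-Ob had differences of 3.61 and 5.70. Relative to macrophages the CD64- library therefore had less RNA of each classical chain named here and more of each DO chain. H2-DMb2, one of 2 neighbouring genes for the DM beta chain, met the rule at 890, 139 and 19.3 FPKM, whereas its near copy H2-DMb1 was highest in macrophages at 585, 1557 and 129. H2-Eb2, a little-used beta chain related to H2-Eb1, met it at 18.2, 1.20 and 2.86 FPKM, but not with median-ratio scaling or equal 75th percentiles. Reads could be shared between these near copies, and BALB/c mice carry another MHC haplotype than the C57BL/6J reference, so the split within the DMb and Eb pairs is uncertain and the part of read mapping in it was not tested. Ciita, the master regulator of class II transcription, was at 66.4, 28.8 and 3.87 FPKM, highest in the CD64- library and short of the rule against macrophages. In all, 4 of 14 class II genes were higher and none lower, with medians of 0.15 and 2.72.

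The 4 class II genes that met the rule lie in the class II region of chromosome 17, between 34092340 and 34341412 (GRCm38). Their promoters are shown with that of H2-Aa, which shares the region and was higher in macrophages. Class II promoters are known for a compact S-X-Y module, whose Y box is an inverted CCAAT element bound by NF-Y. Each window is RefSeq sequence of GRCm38.p6, from 250 bases before to 50 after the annotated start, 5′ to 3′ on the gene's strand. Capitals mark ATTGG, which is CCAAT read on the other strand. The windows are chr17:34238655-34238954 (plus strand) for H2-Ob, chr17:34092129-34092428 (plus) for H2-Oa, chr17:34144999-34145298 (plus) for H2-DMb2, chr17:34325425-34325724 (plus) for H2-Eb2 and chr17:34287774-34288073 (minus) for H2-Aa.
H2-Ob: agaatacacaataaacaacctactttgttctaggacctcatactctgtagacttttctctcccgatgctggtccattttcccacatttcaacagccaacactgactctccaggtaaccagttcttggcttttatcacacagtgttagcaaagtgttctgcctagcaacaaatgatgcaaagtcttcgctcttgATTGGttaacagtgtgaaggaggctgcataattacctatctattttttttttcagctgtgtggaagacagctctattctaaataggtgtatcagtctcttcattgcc
H2-Oa: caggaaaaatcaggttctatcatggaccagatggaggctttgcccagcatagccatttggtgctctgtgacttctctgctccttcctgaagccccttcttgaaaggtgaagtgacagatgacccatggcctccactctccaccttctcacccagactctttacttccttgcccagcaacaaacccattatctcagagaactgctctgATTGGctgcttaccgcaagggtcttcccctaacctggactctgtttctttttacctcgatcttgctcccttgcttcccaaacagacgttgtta
H2-DMb2: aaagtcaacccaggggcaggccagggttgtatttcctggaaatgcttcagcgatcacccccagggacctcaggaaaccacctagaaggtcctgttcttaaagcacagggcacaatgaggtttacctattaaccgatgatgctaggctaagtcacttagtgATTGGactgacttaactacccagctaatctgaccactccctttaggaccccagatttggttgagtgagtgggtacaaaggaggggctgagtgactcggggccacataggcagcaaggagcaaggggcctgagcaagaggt
H2-Eb2: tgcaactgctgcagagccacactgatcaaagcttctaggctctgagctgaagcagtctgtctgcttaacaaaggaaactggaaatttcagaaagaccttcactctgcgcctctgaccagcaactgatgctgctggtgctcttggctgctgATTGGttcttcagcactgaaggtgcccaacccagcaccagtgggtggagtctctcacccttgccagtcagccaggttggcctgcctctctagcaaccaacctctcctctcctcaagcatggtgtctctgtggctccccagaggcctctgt
H2-Aa: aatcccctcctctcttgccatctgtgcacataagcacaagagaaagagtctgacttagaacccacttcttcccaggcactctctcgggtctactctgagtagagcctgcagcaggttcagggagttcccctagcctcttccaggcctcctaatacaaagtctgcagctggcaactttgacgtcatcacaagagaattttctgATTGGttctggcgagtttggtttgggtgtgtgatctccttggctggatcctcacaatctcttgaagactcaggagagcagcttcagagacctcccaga
All 5 windows held 1 match to CCAAT on either strand, each time as ATTGG, with its first base 57, 43, 90, 100 and 48 bases before the start in the order printed. The element did not separate the DO genes from H2-Aa, and CCAAT on either strand occurred in 41.9% of the 17191 genes with a promoter in the table. A match is a description of the letters and not evidence of binding. A share over all members is not given because only 134 of the 210 higher and 132 of the 173 lower genes had a promoter in the table, under the 80% needed.

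B cell genes were the list with the highest share of members. Of 36 compared, 24 were higher in the CD64- library than in both others and none lower, and the 24 was the count under each of the 3 scalings. Their median log2 differences were 3.46 and 3.83, where the medians over all genes were -0.05 and -0.01. They cover the antigen receptor's signalling chains, with Cd79b at 562, 41.2 and 10.8 FPKM beside Cd79a. Cr2, the complement receptor CD21, stood at 37.8, 2.26 and 1.78. The inhibitory coreceptors Cd22 and Siglecg followed at 112, 9.18 and 2.84 and at 97.1, 10.2 and 3.12. Fc receptors of B cells formed a further group. Fcrla, an intracellular Fc receptor-like protein, was at 163, 4.82 and 1.36 FPKM. Fcmr, the IgM receptor, was at 451, 17.6 and 7.41, and Fcer2a, the low-affinity IgE receptor CD23, at 161, 6.02 and 4.97. Fcrla had the largest smaller-of-2 log2 difference among the protein-coding genes, 4.82. Lineage regulators were present too: Pax5, which fixes B cell identity, at 13.1, 0.293 and 0.793 FPKM, and Ebf1 at 27.4, 1.37 and 2.14. Among surface proteins, Ms4a1, which encodes CD20, stood at 228, 13.3 and 8.77. Ly6d, a surface protein of early and mature B cells, was the most abundant of the 24, at 1604, 68.1 and 21.5. Tnfrsf13c, the receptor for the survival factor BAFF, was at 65.5, 4.22 and 4.43. No gene of the list was at 0 in any library, and its summed level was 7853, 872 and 618 FPKM.

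Signalling genes behind the B cell receptor were part of the same set. Of 32 compared, 7 were higher and none lower, among them Blk, Blnk, Bank1, Grap, Cd22 and Rasgrp3. Blk, a SRC family kinase of B cells, stood at 65.3, 2.71 and 2.79 FPKM. The adaptor Blnk, which relays the signal from SYK, was at 187, 28.0 and 6.91. Rasgrp3, a Ras activator, was at 46.9, 1.99 and 2.30. Kinases that myeloid cells share did not meet the rule, with Syk at 92.6, 70.2 and 108 and Lyn at 124, 191 and 177. Of 13 germinal centre genes, 3 were higher. Mef2b, a MADS-box factor, stood at 39.02, 2.35 and 1.41 FPKM, Rgs13, a regulator of chemokine receptor signalling, at 16.4, 1.25 and 0.614, and the DNA glycosylase Neil1 at 81.5, 14.5 and 7.42. Bcl6, the lineage factor of the reaction, was at 14.8, 10.8 and 12.4 FPKM.

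Plasma cell genes gave 15 of 26 higher and none lower, with medians of 2.34 and 3.46. Jchain, which joins IgA and IgM into polymers, was the most abundant of all 383 genes, at 18847, 982 and 352 FPKM in the CD64-, macrophage and Gr-1+ CD11b+ libraries. Mzb1, an endoplasmic reticulum cochaperone for antibody assembly, stood at 995, 48.01 and 17.7 FPKM. Derl3, of protein disposal from that compartment, was at 162, 9.22 and 2.46, and Txndc5, a disulphide isomerase, at 681, 84.5 and 32.5. Receptors of the lineage included Tnfrsf17, which encodes the survival receptor BCMA, at 67.4, 8.53 and 3.30, and Ccr10, a homing receptor of IgA plasma cells of the colon, at 74.3, 2.31 and 2.35. Xbp1, the factor of the secretory programme, was high everywhere, at 1011, 239 and 233 FPKM, and its log2 differences of 2.08 and 2.11 were near the limit. Prdm1, which encodes BLIMP-1 and is also used by macrophages, was not a member, at 21.8, 36.1 and 9.08. The count was 19 with equal sums, 13 with median ratios and 14 with equal 75th percentiles. The summed level of the list was 26304, 2700 and 1127 FPKM, and Jchain made up most of it in the CD64- library. Antibody and T cell receptor segments and constant regions, the usual measure of such cells, were not among the symbols in the tables.

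**Figure D3:**
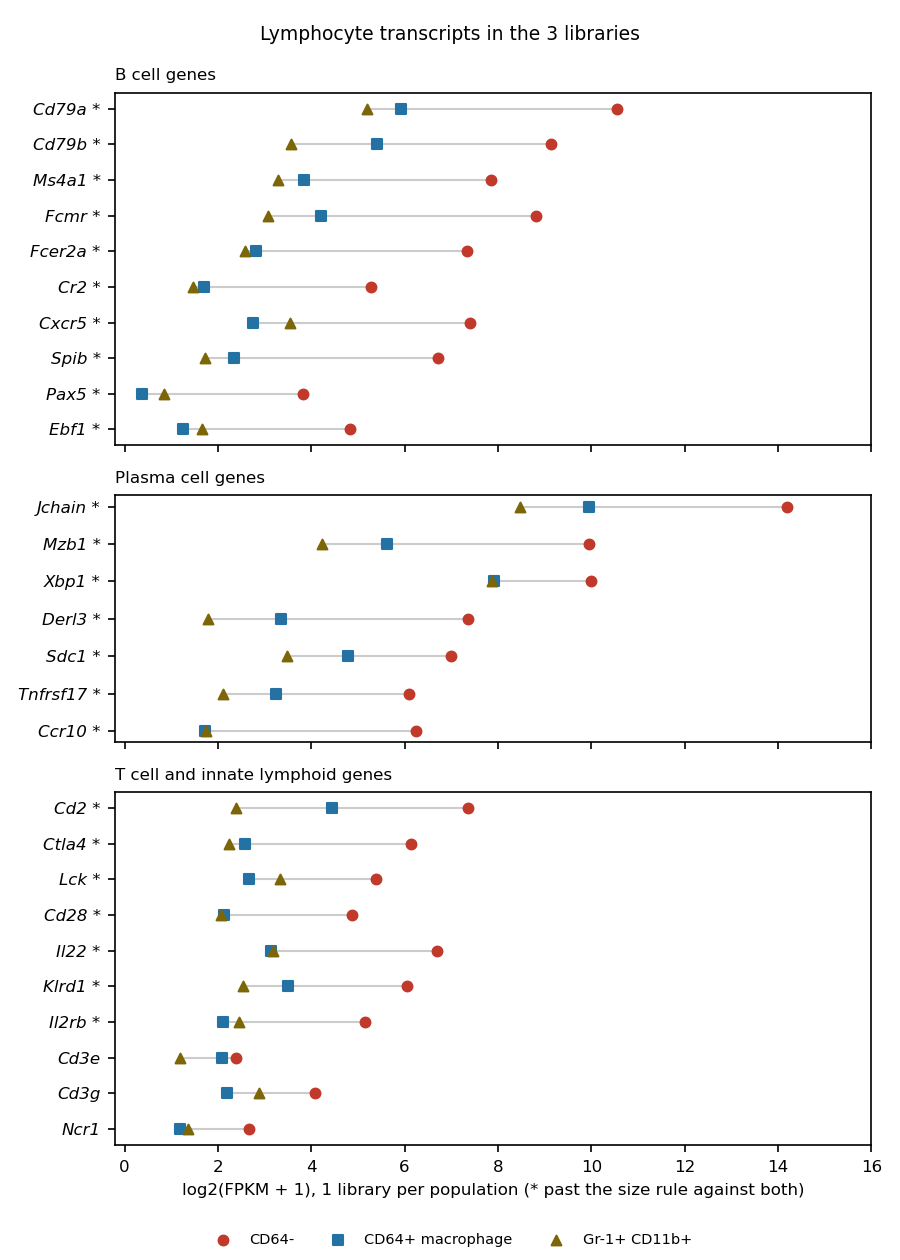
Rows are lymphocyte genes and symbols their log2(FPKM + 1) values in the 3 libraries, circles for the CD64- library, squares for CD64+ macrophages and triangles for Gr-1+ CD11b+ cells, with an asterisk where the rule was met. In the B and plasma cell panels the circles stand far to the right of the other symbols, and Jchain reaches 18847 FPKM in the CD64- library.

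The B cell genes also had low values in the other libraries, and not all of these exceeded the silent-gene level. That level was 3.23 FPKM in the macrophage library and 9.67 in the Gr-1+ CD11b+ library. Cd79a, Cd79b and Ly6d lay above it in both, whereas Pax5 and Ebf1 lay under it in both. The percentages that follow include such values. Over the 32 B cell genes at 10 FPKM or above in either library of the pair, the macrophage level was a median 6.31% of the CD64- level and the Gr-1+ CD11b+ level 3.82%. For comparison, macrophage genes in the CD64- library stood at a median 16.5% of the macrophage level (30 genes, from 7.72% for Cd14 to 73.9% for Timd4), and neutrophil genes at 1.44% of the Gr-1+ CD11b+ level (29 genes). The summed level of the macrophage list was 5373, 41416 and 15997 FPKM and that of the neutrophil list 3395, 8963 and 205852. C1qa, a complement gene of tissue macrophages, was at 96.3, 1008 and 102 FPKM, Adgre1, which encodes F4/80, at 21.4, 197 and 32.5, and S100a8, an abundant neutrophil gene, at 828, 2154 and 98580. The CD64- library thus held transcripts of the B cell, plasma cell, macrophage and neutrophil lists beside those of the DC lists. Which cells these transcripts came from was not tested, nor was the part of each cell type in the differences described here. Without the B cell, germinal centre and plasma cell lists, 169 higher genes remained.

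Promoters of 2 B lineage members are shown because these genes led the list and their windows hold letters known from B cell promoters: the octamer ATGCAAAT, read by OCT1 and OCT2 with the coactivator encoded by Pou2af1, and AGGAAGT, read by the ETS factors PU.1 and Spi-B. Both motifs were searched on both strands. The windows are chr7:24897247-24897546 (plus strand) for Cd79a and chr10:75948050-75948349 (plus) for Vpreb3, RefSeq GRCm38.p6, printed 5′ to 3′ with the matches in capitals.
Cd79a: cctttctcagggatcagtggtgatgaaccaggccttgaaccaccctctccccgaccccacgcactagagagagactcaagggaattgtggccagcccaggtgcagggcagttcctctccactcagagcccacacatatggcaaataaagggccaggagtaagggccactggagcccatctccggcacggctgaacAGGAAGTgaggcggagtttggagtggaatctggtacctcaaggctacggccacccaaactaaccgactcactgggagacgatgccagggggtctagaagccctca
Vpreb3: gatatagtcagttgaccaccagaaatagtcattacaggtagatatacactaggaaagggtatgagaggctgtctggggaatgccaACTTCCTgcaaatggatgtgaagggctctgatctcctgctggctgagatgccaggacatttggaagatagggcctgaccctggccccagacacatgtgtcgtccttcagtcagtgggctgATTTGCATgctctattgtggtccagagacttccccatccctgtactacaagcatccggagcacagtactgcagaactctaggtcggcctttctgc
Cd79a held AGGAAGT with its first base 55 bases before the start. Vpreb3, a chaperone of the B cell receptor at 192, 9.02 and 5.08 FPKM, held the octamer as ATTTGCAT 45 bases before the start and ACTTCCT, the reverse of the ETS letters, 165 bases before it. Among the 17191 genes with a promoter in the table, 1.82% held the octamer and 10.5% the ETS letters. Pou2af1 stood at 158, 5.76 and 2.35 FPKM, and Spib had log2 differences of 4.36 and 4.98.

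T cell and innate lymphoid genes were present at lower levels. Of 28 T cell genes, 4 were higher and none lower. Cd2, an adhesion receptor of T, NK and B cells, stood at 163, 20.7 and 4.24 FPKM. Ctla4, an inhibitory receptor, was at 69.6, 4.999 and 3.68. Cd28, its activating counterpart, also used by plasma cells, was at 28.2, 3.41 and 3.17. The kinase Lck was at 40.6, 5.36 and 9.11 and lost the rule with median ratios and equal 75th percentiles. The defining T cell receptor complex was low, with Cd3e at 4.24, 3.22 and 1.29 and Cd3g at 15.8, 3.60 and 6.34 FPKM. No gene of the list was at 0 in any library, and the summed level was 457, 137 and 101 FPKM. Of 23 NK and innate lymphoid genes, 4 were higher and none lower. Il22, the cytokine of group 3 innate lymphoid cells that acts on the gut epithelium, stood at 102, 7.84 and 8.13 FPKM, with log2 differences of 3.54 and 3.50 that met the rule under all 3 scalings. Klrd1, which encodes CD94 of NK cells, was at 65.2, 10.3 and 4.84 and Il2rb, a receptor chain for IL-2 and IL-15, at 34.7, 3.29 and 4.45. Cd7 was the other. The NK receptor Ncr1 was at 5.38, 1.28 and 1.58 FPKM, highest in the CD64- library and under the limit of 10. T and innate lymphoid lists together held 8 higher genes, 3.81% of the 210 and 15.7% of the 51 list genes.

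Receptors for migration were unevenly represented. Of 28 compared chemokine and sphingosine phosphate receptor genes, 6 were higher and 2 lower in the CD64- library. The 6, Ccr7, Cxcr5, Ccr6, Ccr10, S1pr1 and S1pr4, are known from lymphoid homing, mucosal positioning and egress. Cxcr5, which leads B cells to follicles, stood at 168, 5.70 and 10.7 FPKM. Ccr6, which binds CCL20 at lymphoid structures of the gut, was at 92.1, 3.75 and 1.95. The sphingosine phosphate receptors followed, S1pr1 at 100.2, 7.91 and 5.04 and S1pr4 at 14.1, 1.27 and 1.81. S1pr4 lost the rule with median ratios and equal 75th percentiles, and the other 5 kept it under each scaling. The 2 lower genes are Ccr1, an inflammatory receptor of monocytes and neutrophils, at 43.2, 339 and 548, and Ccrl2, a chemerin-binding receptor, at 148, 1380 and 1930. Cx3cr1 and Ccr2, of macrophages and their monocyte precursors, were low relative to macrophages only, at 5.97, 55.0 and 4.23 and at 27.6, 247 and 25.8 FPKM.

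Of 53 lineage transcription factors, 10 were higher and 1 lower. Beside those named above, Ets1 stood at 154, 9.13 and 11.1 FPKM and Ikzf3, which encodes Aiolos, at 42.8, 3.30 and 2.23. Both are lymphocyte factors. The lower one, Cebpb, a C/EBP factor of monocytes, macrophages and granulocytes, was at 247, 1719 and 3912. The higher count was 11 with equal sums and 6 with each of the other scalings.

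Higher genes outside the lists numbered 115 with a gene symbol, and 20 more had symbols that are only codes. Dusp4, a phosphatase that inactivates MAP kinases, led the protein-coding ones at 124, 4.87 and 1.60 FPKM. The following were chosen for mention after their values were seen. Of the enzymes, the lipid desaturase Scd1 stood at 95.2, 4.47 and 4.01 and Phgdh, which starts serine synthesis, at 137, 8.97 and 10.2. The forkhead factor Foxo1 was at 57.3, 5.70 and 2.73, and Tnfsf11, the cytokine RANKL, at 20.7, 1.73 and 0.975. The Gimap genes, small GTPases of lymphocyte survival, gave 7 of 8 members between 48676129 and 48770851 on chromosome 6, led by Gimap6 at 373, 25.004 and 9.02 FPKM. Gimap1 and Gimap5 lost the rule with median ratios and with equal 75th percentiles, and the other 5 kept it under all 3 scalings. Among the 210, 188 were protein-coding, 9 small nucleolar RNAs and 6 microRNAs. Genes with no transcript of 300 nt or more numbered 16 and held 15 of the 30 highest ranks by difference. FPKM divides by a length shorter than most fragments there, and strand is not stated, so they are counted here and not described. Without them 194 higher genes remained.

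**Figure D4:**
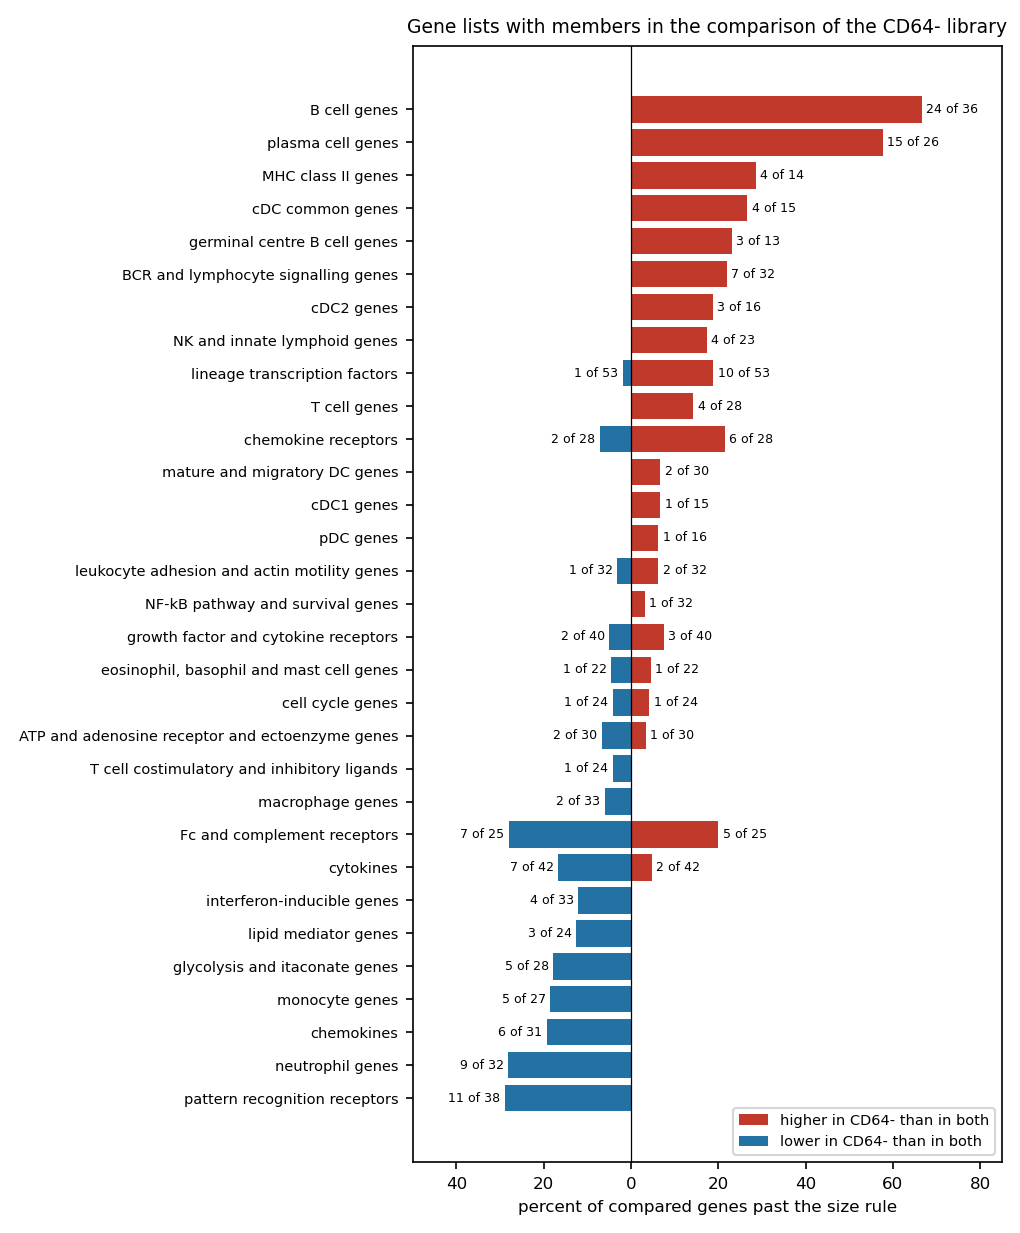
Bars give, for each gene list with a member, the percent of its compared genes higher (right, red) or lower (left, blue) in the CD64- library than in both others, with the counts beside them. B cell genes (24 of 36) and plasma cell genes (15 of 26) reach farthest right, and pattern recognition receptors (11 of 38) farthest left.

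Of the 173 lower genes, 57 were on a gene list, and pattern recognition receptors were among these. Of 38 pattern recognition receptors, 11 were lower than in both and none higher, with medians of -2.07 and -1.02. Cd14, the lipopolysaccharide coreceptor, stood at 462, 5981 and 10998 FPKM, with log2 differences of -3.69 and -4.57. Tlr2, the receptor for bacterial lipoproteins, was at 30.3, 332 and 297, and Clec4e, the Mincle receptor for mycobacterial and fungal glycolipids, at 62.8, 851 and 1523. Its neighbours Clec4d and Clec4n on chromosome 6 were lower as well, at 8.93, 87.8 and 521 and at 65.9, 616 and 323. The formyl peptide receptors Fpr1 and Fpr2, which detect bacterial peptides, stood at 18.0, 92.1 and 1407 and at 6.11, 61.3 and 226, and Nlrp3, the inflammasome sensor, at 10.5, 68.4 and 134. Tlr4 lay just outside the limit at 2.03, 10.9 and 27.7 FPKM. The count of lower receptors was 8 with equal sums and 11 with each other scaling.

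Of 42 cytokine genes, 7 were lower and 2 higher. Il1b, among the most abundant cytokine transcripts of the other populations, stood at 1894, 11637 and 13362 FPKM, log2 differences of -2.62 and -2.82, and it remained abundant in the CD64- library. Il1a was at 73.4, 813 and 425 and the antagonist Il1rn at 126, 1475 and 935. Il23a, a subunit of IL-23, stood at 6.93, 132 and 120 FPKM, with log2 differences of -4.07 and -3.93, the farthest from both libraries of the 9 cytokine members. Its partner subunit Il12b was at 11.8, 13.9 and 5.16 and not a member. Osm, an IL-6 family cytokine, was at 34.5, 346 and 516. Tnf stood at 20.4, 218 and 105 and Inhba, an activin subunit, at 7.62, 143 and 37.2, and these 2 lost the rule with equal sums. The 2 higher cytokines were Il22 and the lymphotoxin gene Lta, at 12.3, 0.374 and 0.674.

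Chemokine genes gave 6 of 31 lower and none higher. Ccl3, a ligand of CCR1, stood at 53.0, 399 and 456 FPKM. Ccl4, a related chemokine, was at 238, 1700 and 1698, and Ccl6, in the same cluster on chromosome 11, at 286, 1842 and 1503. Cxcl2 and Cxcl3, which attract neutrophils, were at 107, 975 and 2110 and at 12.7, 58.7 and 605. Cxcl10, an interferon-induced ligand of CXCR3, was at 258, 1213 and 1106. With equal sums the count was 4.

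Of 25 Fc and complement receptor genes, 7 were lower and 5 higher and the others met the rule in neither direction, with medians of -1.78 and -0.51. The activating Fc receptor genes Fcgr4 and Fcgr3, neighbours on chromosome 1, stood at 24.1, 347 and 302 and at 87.6, 1005 and 818 FPKM, and Fcer1g, their signalling chain, at 670, 4597 and 4487. C5ar1, the C5a receptor, was at 35.1, 462 and 1212, and Itgam, the CD11b chain of complement receptor 3, at 18.7, 114 and 172. Trem1, which amplifies Toll-like receptor signals, was at 19.1, 175 and 1120, and Tyrobp, an adaptor of such receptors outside the lists, at 1062, 5327 and 8167. The 5 higher genes were Cr2, Fcer2a, Fcmr, Fcrl1 and Fcrla, all of them also on the B cell list, and both counts were the same under each scaling.

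Paired receptors of myeloid cells recurred among the lower genes in clusters. All 3 Pilr genes on chromosome 5 were members, led by Pilra at 10.3, 136 and 204 FPKM, as were 3 of 7 compared Cd300 genes, 3 of 6 Trem and Treml genes and 4 of 9 Lilr and Pir genes. These families hold near-identical copies, such as Pilrb1 and Pilrb2, Lilrb4a and Lilr4b, and Sirpb1a and Sirpb1b, between which fragments could be divided, so single values are uncertain.

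**Figure D5:**
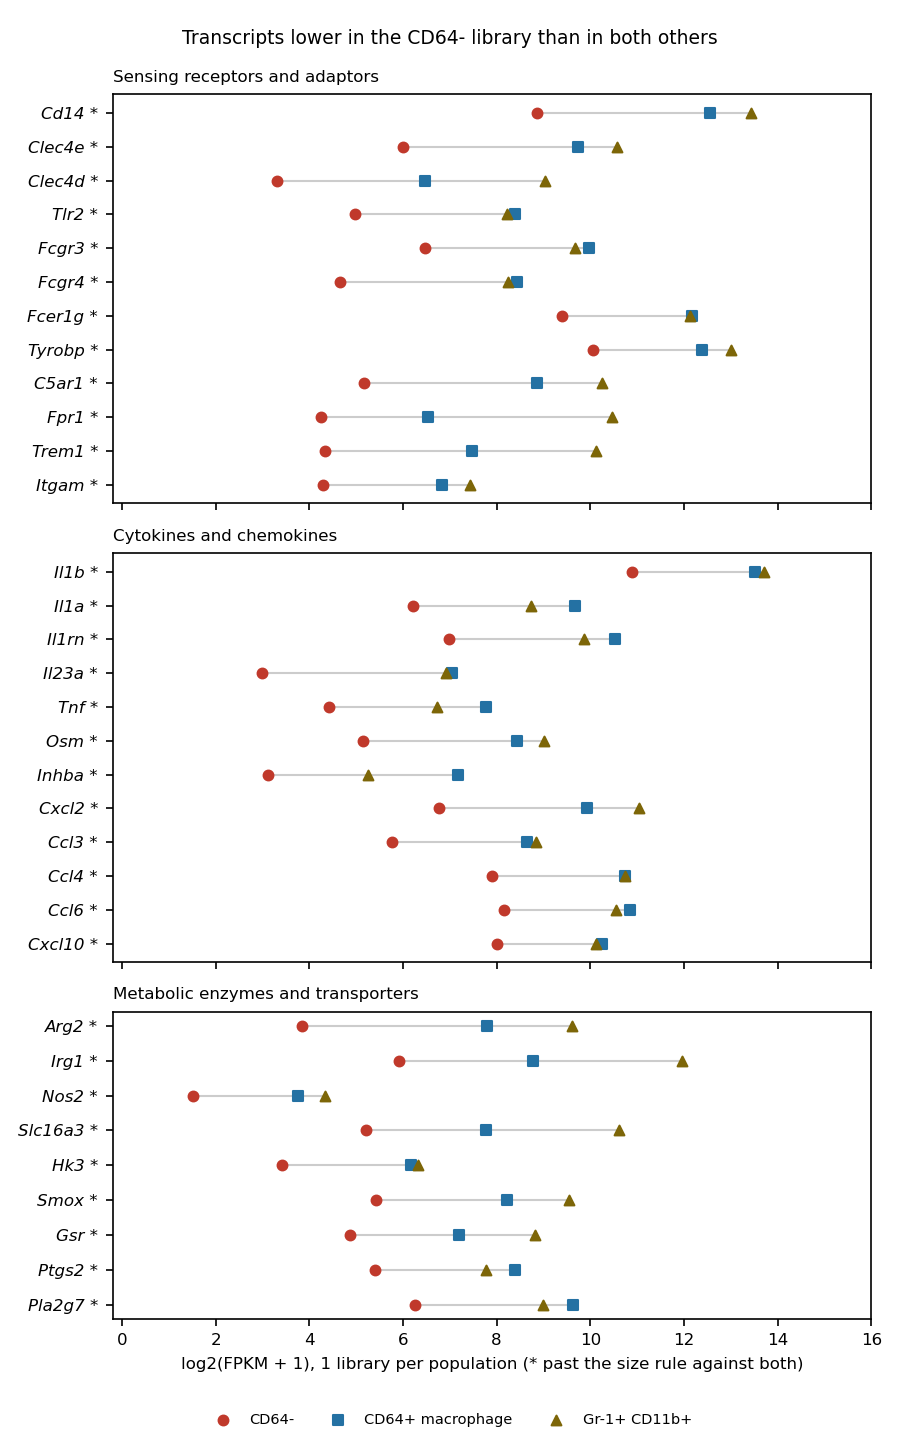
Rows are genes lower in the CD64- library than in both others, and symbols their log2(FPKM + 1) values, circles for the CD64- library, squares for CD64+ macrophages and triangles for Gr-1+ CD11b+ cells. The circles of Il23a, Arg2 and Cd14 lie far to the left of both other symbols, and Il1b remains at 1894 FPKM in the CD64- library.

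Enzymes of arginine, itaconate and glucose handling gave 5 of 28 lower and none higher. Arg2, the mitochondrial arginase, stood at 13.3, 222 and 779 FPKM, with log2 differences of -3.96 and -5.77. Irg1, the itaconate-producing enzyme also called ACOD1, was at 59.4, 439 and 3952, and Slc16a3, a lactate exporter, at 35.8, 218 and 1572. Both were highest in the Gr-1+ CD11b+ library. Hk3, a hexokinase of myeloid cells, stood at 9.66, 71.04 and 78.4, and Nos2, the inducible nitric oxide synthase, at 1.87, 12.5 and 19.3. Lipid mediator genes gave 3 of 24 lower, all highest in macrophages. Pla2g7, a secreted phospholipase that degrades platelet-activating factor, stood at 75.8, 791 and 506. Ptgs2, the inducible cyclooxygenase, was at 41.5, 337 and 217, and Plin2, a lipid droplet coat protein, at 64.2, 464 and 326. Of 33 interferon-inducible genes 4 were lower, among them Isg15 at 65.5, 366 and 337 and Rsad2, an antiviral enzyme, at 6.94, 32.0 and 33.8. With equal sums the lipid count was 1, that of Pla2g7, and the interferon count was 0.

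Genes that define the 2 other populations were only partly among the lower members, because the rule asks for a difference from both. Of 33 macrophage genes, 2 were lower than in both, Cd14 and the iron exporter Slc40a1, although their median difference from the macrophage library was -2.37. Of 32 neutrophil genes, 9 were lower, with medians of -1.33 and -5.84, and 5 with equal sums. Csf3r, the G-CSF receptor, stood at 9.85, 63.6 and 838 FPKM. Hdc, which makes histamine, was at 35.2, 148 and 3310 and lost the rule with equal sums. Of 27 monocyte genes, 5 were lower, among them Chil3, a chitinase-like protein, at 28.8, 566 and 198, and Thbs1, which encodes thrombospondin, at 104, 1020 and 970. The 3 lists held 15 of the 173 lower genes (8.67%), which is 16.5% of their 91 compared genes. Camp, Elane and Mpo of the neutrophil list and Vsig4 of the macrophage list were listed at 0 in the CD64- library. Elane was listed at 0 in all 3 libraries and Camp in the macrophage library as well.

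The list of ATP and adenosine receptor and ectoenzyme genes, to which the series title relates, had 3 members of 30 compared genes. P2ry10, a lysophosphatidylserine receptor of lymphocytes despite its name, was higher at 123, 12.6 and 4.22 FPKM. P2ry13, an ADP receptor, was lower at 4.29, 37.0 and 50.8, and P2ry2, for ATP and UTP, at 1.78, 12.1 and 29.4, the latter not with equal sums. P2rx4 was at 73.4, 203 and 25.9 and Entpd8, which encodes E-NTPD8, at 1.21, 0.487 and 1.13 FPKM; neither met the rule.

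Of 24 cell cycle genes, 1 was higher and 1 lower. Mcm2, a subunit of the replicative helicase, stood at 25.95, 5.03 and 4.99 FPKM and met the rule with equal sums only, and Tyms, thymidylate synthase, was at 18.4, 79.3 and 223 and lost it with equal sums. None of 34 ribosomal protein genes met the rule, but their median log2 difference was 0.62 against macrophages and 2.38 against Gr-1+ CD11b+ cells. None of 30 respiratory chain genes, 15 housekeeping genes or 21 genes of class I presentation met it, nor did any of 28 epithelial and 24 stromal and endothelial genes. The epithelial list had median log2 differences of 0.61 and -0.91, higher than in macrophages and lower than in Gr-1+ CD11b+ cells, with summed levels of 2048, 1366 and 4757 FPKM. Of 29 genes of the phagocyte oxidase, granules and lysosome none met the rule, with medians of -1.96 and 0.00.

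The limits of the rule cut through a continuum. The 5 genes just inside the log2 limit in the higher direction were Fchsd2, Snx29, Zfp472, Capn5 and Prkd2, with smaller differences from 2.002 to 2.015, and the 5 just outside were Rasal3, Fam136a, Prim1, Ifng and Wdr6, from 1.97 to 1.99. Ifng, which encodes interferon gamma, stood at 12.4, 2.05 and 2.38 FPKM. In the lower direction Il1f9, Olfr856-ps1, Jdp2, Emilin2 and Cd300lf lay just inside, with sizes from 2.01 to 2.03, and Alox5ap, Tlr4, Zfp937 and Ltb4r1 just outside, from 1.91 to 1.99. Olfr856-ps1 is an olfactory receptor pseudogene listed at 156, 631 and 1853 FPKM, and Olfr613 and Vmn1r58, receptors of the nose, were also among the lower genes, at 15.4, 106 and 242 and at 9.38, 64.4 and 166. What these fragments derive from was not tested, and all 3 followed the order of the background level across the libraries.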

How the data were processed

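RNA from 3 sorted colonic populations, 1 library each, was made into full-length cDNA with the SMART-Seq HT kit and into libraries with a Nextera kit, as the labels' protocols give it. FPKM values were deposited by the authors in 1 table per library. The submitters' processing notes name Cufflinks 2.2.1, TopHat2 2.0.13, SAMtools 0.1.19 and Bowtie2 2.2.3 with build mm10, without role or order; annotation, strand and filters are not given in the sources used here.

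Values were used as deposited. Differences are of log2(FPKM + 1), a pseudocount of 1 that understates differences of low genes. The members and the 39 gene lists (926 genes in the tables) were chosen with earlier results of these data known. With 1 library per population no test was run, and lists are described by counts and medians beside those of all genes compared. Depth was estimated from low FPKM values of genes over 800 nt. Of these values, 74.8%, 67.2% and 69.1% lay within 0.2 of a whole number of fragments. By chance 40% would for a fragment unit fixed in advance. The unit used was the best-fitting of those tried, so 40% is too low a comparison. The depth estimate covers counting error only. GENCODE M21 (GRCm38) gave coordinates, lengths and biotypes for 378 of the 383 members that matched 1 gene, and RefSeq (GRCm38.p6) the promoters.

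The named genes were the population's 4 markers, the 30 members with the largest smaller-of-2 differences in each direction, list members that met the rule, up to 10 abundant genes per list, sort markers and genes beside the limits. Symbols that are only codes were counted. Some genes are not reported here. Other genes, such as defining markers of low level, were named after their values were seen. Alternatives were other pseudocounts, limits and floors, 3 scalings, and leaving out short transcripts, a background level or the B lineage lists. The size rule was also run on simulated data that held counting error only, without differences between animals or in background. That run is therefore no check of the members reported here. Calculations used Python 3.11.15, NumPy 2.4.6, pandas 2.3.3 and matplotlib 3.10.9.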

Additional observations from a re-analysis of the deposited data

How the results depend on the processing

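With 210 higher and 173 lower genes as reported, a pseudocount of 10 gave 87 and 75, a log2 limit of 1 gave 808 and 421, a log2 limit of 3 gave 94 and 38, and scaling to equal FPKM sums gave 325 and 106. A floor of 30 FPKM gave 125 higher genes, and no floor beyond 1 FPKM gave 287 lower genes. The other alternatives stayed within 1.5 times, from 146 to 258 higher genes and from 140 to 232 lower ones. No gene that met the rule met it in the other direction under a scaling. No paired analysis was possible because each population had 1 library, and for the same reason no library could be left out. Depth limits the low values of the Gr-1+ CD11b+ library most, where 10 FPKM on 1 kb was about 22.3 fragments. The scaling decides which genes near the limit are members, and no spike-in or replicate was available here to choose among scalings.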

Other observations

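Some further members were chosen after their values were seen. Prg2, the eosinophil major basic protein, which plasma cells also transcribe, was higher at 108, 6.31 and 3.79 FPKM in the CD64-, macrophage and Gr-1+ CD11b+ libraries, while Epx, the eosinophil peroxidase, was listed at 0 in all 3. Inhibitory receptors of T cells were among the higher genes, with Pdcd1, which encodes PD-1, at 37.8, 3.82 and 4.13 and Tigit at 17.8, 2.14 and 3.16. The epithelial surface gene Plet1, also known from gut DC, stood at 74.6, 15.9 and 12.8, and Haao, an enzyme of tryptophan breakdown, at 74.3, 12.4 and 13.7. Plet1, Haao and Tigit met the rule with equal sums and not with the other scalings.

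Among lower genes outside the lists, Slc11a1, the phagosomal metal transporter NRAMP1, stood at 36.4, 369 and 513 FPKM and Hp, haptoglobin, at 39.9, 409 and 3029. Gpr84, a receptor for medium-chain fatty acids, was at 6.34, 95.5 and 147, and Hcar2, the receptor for butyrate and niacin, at 14.04, 77.4 and 769. Gpr35, a gut metabolite receptor, was at 30.8, 183 and 145. The genes Slc11a1, Hp and Gpr84, ranked among the 30 lower genes with the largest differences from both libraries.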
